A study of Mus musculus with 2 samples.

Results

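The genes described here are the LIM-homeobox (LIM-HD) transcription factors Lhx1, Lhx2, Lhx5, Lhx6, Lhx8, Lhx9 and Isl1, the LIM-only proteins Lmo3 and Lmo4, and the adaptor Ldb1. They were chosen by name and matched by Ensembl gene identifier in the gene and transcript tables of both libraries, which gave 10 genes of the 43346 in the tables and 60 transcripts. All 10 were found, and all passed the filter of a mean of at least 10 counts. The tissue was whole forebrain of newborn mice, strain B6NTac;B6NCrl/Lap, at 0 days after birth, with males and females pooled. There was 1 group of 2 libraries and no treated, mutant or control group, so genes were compared with each other inside the tissue, and the libraries with each other. Replicate 1 came from 15 mice, and the number pooled for replicate 2 is not given in the sources used here. The labels call the libraries independent isolates but give both the same donor identifier, so each SD below (n = 2 libraries) measures only the spread between these isolates.

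A LIM-HD protein carries a pair of LIM domains, which bind other proteins, and a homeodomain, which binds DNA. LDB proteins dimerize and hold LIM-HD proteins in complexes through a LIM-interaction domain, while LMO proteins have LIM domains but no homeodomain and compete for the same adaptor. In the forebrain, combinations of LIM-HD factors are known for assigning regional and neuronal identity, such as cortex by Lhx2, cortical interneurons by Lhx6 and cholinergic neurons by Lhx8 and Isl1.

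All 7 LIM-HD genes code, in at least 1 transcript, for the same run of 4 amino acids in the third helix of the homeodomain, the helix that enters the major groove of DNA. The 12 coding bases are shown because they serve below to tell transcripts that code for this part of the homeodomain from those that do not. They were found by translating the coding sequence of each annotated transcript (GENCODE M21, mm10), and capitals mark all 12 bases.
Isl1: TGGTTTCAAAAC
Lhx6: TGGTTTCAAAAC
Lhx9: TGGTTCCAAAAC
Lhx1: TGGTTCCAGAAT
Lhx2: TGGTTTCAGAAT
Lhx5: TGGTTTCAGAAC
Lhx8: TGGTTTCAGAAC
Isl1 and Lhx6 shared 1 spelling, Lhx5 and Lhx8 shared another, and Lhx1, Lhx2 and Lhx9 each had their own.

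The libraries held 62516003 and 65912060 expected counts, which are estimated fragment counts per gene. Levels are given as coding TPM, that is TPM (transcript abundance per unit length) rescaled so that protein-coding genes sum to the full TPM total in each library, by factors of 7.38 and 4.54. Before rescaling, protein-coding genes held 135425 and 220267 of 1000000 TPM, so the libraries differed in the share of TPM outside these genes. The forebrain identity of the tissue was checked with marker genes. Bcl11b, a factor of cortical and striatal projection neurons, had 100.1 and 118 coding TPM and the neuronal tubulin Tubb3 had 3808 and 3660.2, while the hindbrain and motor neuron genes Hoxa4, Hoxb4, Hoxd4, Mnx1 and Phox2a had 0 counts in both libraries, which allows up to 3 counts each. In bulk tissue, fewer cells of a type and less RNA per cell cannot be told apart.

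The LIM-only genes and the adaptor stood above every LIM-HD gene among the 10. Lmo4 (ENSMUSG00000028266.13, mm10 chromosome 3, 144188530 to 144205220, minus strand), a LIM-only gene of cortical and other forebrain neurons, had 297 coding TPM in replicate 1 and 247 in replicate 2 (mean 272 ± 35.3, SD, n = 2). This level was above that of 96.6% of the protein-coding genes that passed the count filter. Lmo3 (ENSMUSG00000030226.8, chromosome 6, 138362918 to 138581968, minus strand), a LIM-only gene expressed mainly in brain, had 215 and 220.4 coding TPM (217 ± 4.09). Lmo4 was the higher of the pair in both libraries, by 1.38-fold and 1.12-fold (mean log2 ratio of coding TPM 0.32 ± 0.22). Ldb1 (ENSMUSG00000025223.10, chromosome 19, 46031570 to 46045214, minus strand), the broadly expressed LIM-domain-binding adaptor, had 139.9 and 160.1 coding TPM (150.0 ± 14.2). The ranges of Lmo4, Lmo3 and Ldb1 over the libraries did not overlap, and neither did those of Ldb1 and Lhx2.

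Among the LIM-HD genes, Lhx2 (ENSMUSG00000000247.7, chromosome 2, 38339281 to 38369733, plus strand), which specifies cortical progenitors, had 84.8 and 79.6 coding TPM (82.2 ± 3.69). Lhx6 (ENSMUSG00000026890.15, chromosome 2, 36081953 to 36105408, minus strand), which directs interneurons of the medial ganglionic eminence (MGE), had 54.1 and 80.6 (67.4 ± 18.7). Isl1 (ENSMUSG00000042258.9, chromosome 13, 116298281 to 116309689, minus strand), a factor of striatal projection and cholinergic neurons, had 53.3 and 60.6 (56.9 ± 5.13). Lhx2 exceeded Lhx6 in replicate 1 alone, and Lhx6 exceeded Isl1 by little in replicate 1, so the ranges of each of these pairs overlapped.

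The 4 lower LIM-HD genes covered a wider span. Lhx9 (ENSMUSG00000019230.10, chromosome 1, 138825186 to 138848577, minus strand), a close relative of Lhx2 known from thalamus and other diencephalic regions, had 18.5 and 29.9 coding TPM (24.2 ± 8.07). Lhx8 (ENSMUSG00000096225.4, chromosome 3, 154306294 to 154330659, minus strand), a factor of cholinergic neurons of the basal forebrain, had 13.2 and 23.5 (18.4 ± 7.28). Lhx5 (ENSMUSG00000029595.8, chromosome 5, 120431699 to 120441223, plus strand), known from Cajal-Retzius cells and hypothalamus, had 4.65 and 5.40 (5.03 ± 0.531). Lhx1 (ENSMUSG00000018698.11, chromosome 11, 84518284 to 84525535, minus strand), its closest relative, had 2.36 and 7.58 (4.97 ± 3.69). The ranges of Lhx9 and Lhx8 overlapped, as did those of Lhx5 and Lhx1, while Isl1 lay above Lhx9, and Lhx8 above Lhx5, in both libraries.

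**Figure D1:**
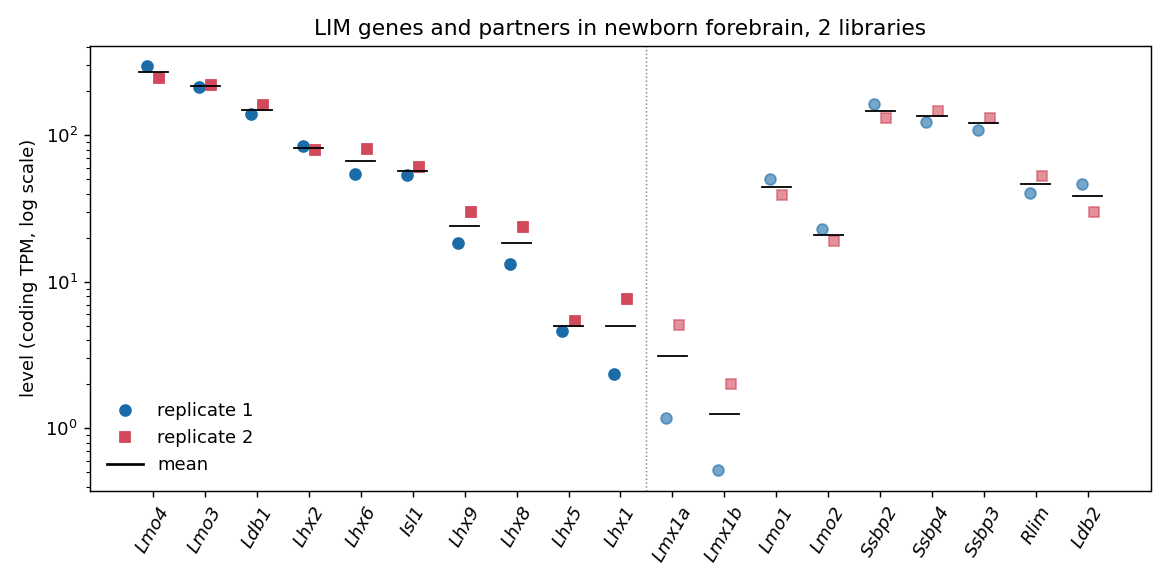
Level of each of the 10 genes (left of the dotted line) and of other LIM genes and LDB partners (right) in coding TPM on a log scale, with a point for each library and a bar at the mean. Levels among the 10 ran from a mean of 272 for Lmo4 to 4.97 for Lhx1, and Lhx1, Lmx1a and Lmx1b had the widest gaps between libraries.

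The related LIM-HD genes differed in level within each library. Lhx2 exceeded Lhx9 by 4.60-fold and 2.67-fold (mean log2 ratio 1.81 ± 0.56), and Lhx6 exceeded Lhx8 by 4.09-fold and 3.43-fold (1.91 ± 0.18). Lhx1 and Lhx5 had no stable order, with Lhx1 at 0.508 and 1.40 times the level of Lhx5 (log2 ratio -0.24 ± 1.04). In replicate 2, 5 counts assigned to the 382-nt transcript Lhx1-202 carried 24.1% of the TPM of Lhx1. Counted on Lhx1-201 alone, a restriction added after seeing the data, Lhx1 had 1.92 and 5.77 coding TPM, or 0.413 and 1.07 times Lhx5.

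Summed over their families, LMO transcripts outnumbered LIM-HD transcripts. The 4 LMO genes summed to 585 and 525 coding TPM, the 12 LIM-HD genes of the mouse to 233 and 294, and Ldb1 with Ldb2 to 187 and 189.95. LMO genes thus stood at 2.51 and 1.79 times the LIM-HD sum, and LIM-HD genes at 1.25 and 1.55 times the LDB sum. Lhx2 supplied 36.4 and 27.1% of the LIM-HD sum, Lhx6 23.2 and 27.4%, Isl1 22.9 and 20.6%, Lhx9 7.93 and 10.2%, and Lhx8 5.68 and 7.99%. Lhx5 held 2.00 and 1.84% and Lhx1 1.01 and 2.58%, so that the largest share was that of Lhx2 in replicate 1 and, by a narrow margin, that of Lhx6 in replicate 2. These are RNA levels and say nothing of the amounts of protein.

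The rest of the family was fixed by name as well. Of the 5 LIM-HD genes outside the 10, only the related factors Lmx1a and Lmx1b, known from the diencephalon and midbrain, passed the count filter, at 1.18 and 5.04 coding TPM and at 0.517 and 2.00. Lhx3, Lhx4 and Isl2, known from motor neurons, pituitary or sensory neurons, had 3, 17 and 1 counts in replicate 1 and 0 in replicate 2, where up to 3 counts are allowed. Lmo1, a LIM-only gene first known from leukaemia, had 50.5 and 39.0 coding TPM, and Lmo2, a LIM-only gene of blood and vessels, had 23.0 and 19.1. Ldb2, the second LDB adaptor, had 46.7 and 29.9, which put Ldb1 3.00-fold and 5.36-fold above it (log2 ratio 2.00 ± 0.59). The SSBP proteins, which bind LDB and protect it from degradation, were abundant, with Ssbp2 at 164 and 131, Ssbp4 at 124 and 146 and Ssbp3 at 109.6 and 131 coding TPM. Rlim, the ubiquitin ligase that targets LDB proteins, had 40.5 and 52.5.

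The difference between the libraries was tested for every gene with an exact binomial test on rounded counts scaled by TMM, a method that sets library sizes from the bulk of genes. A call needed a difference of 2-fold or more together with an adjusted p under 0.05. It compares reads of 2 libraries of 1 condition. Of 17544 genes tested, 1833 (10.4%) were called, 966 (5.51%) higher and 867 (4.94%) lower in replicate 2. Of the 10 genes described here 1 was called, Lhx1, a share near that background. Counts of these genes were high, and among the 11882 genes with at least the mean count of the lowest of them 1.56% were called, 0.589% higher in replicate 2. That second background was added after seeing the data.

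Lhx1 had 162 counts in replicate 1 and 500 in replicate 2, which was 2.54-fold higher after scaling (log2 ratio 1.34, SE 0.13, adjusted p = 3.69e-27 by the exact binomial test with Benjamini-Hochberg adjustment). Lhx8, with 339 and 687 counts, had a log2 ratio of 0.74 (SE 0.10), and Lhx9, with 1641 and 2821, of 0.50 (SE 0.04). Lhx6 stood at 0.31 with 2842 and 4263 counts, and Isl1 at 0.26 with 1937 and 2824. The ratios of these LIM-HD genes all had replicate 2 as the higher library, but only that of Lhx1 passed 2-fold. Lhx5, with 241 and 304 counts, stood at 0.06 (95% interval -0.19 to 0.30, counting error only).

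Lmo4 (8164 and 7553 counts) and Lhx2 (3334 and 3192 counts) had replicate 1 as the higher library, with log2 ratios of -0.39 and -0.34. Ldb1 (4831 and 5883 counts) stood at 0.01 and Lmo3 (9744 and 11638 counts) at -0.02, with 95% intervals of counting error from -0.05 to 0.06 and from -0.06 to 0.02. The sign for Lmo3 depends on the scaling, since its coding TPM and its count scaled by library totals (log2 ratio 0.17) were higher in replicate 2. Over the 10 genes, 7 ratios were above 0 and the median was 0.16, and 7 had an adjusted p under 0.05. Over all genes tested the median was -0.00 and 65.4% had an adjusted p under 0.05, so that at this depth a small p is common.

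**Figure D2:**
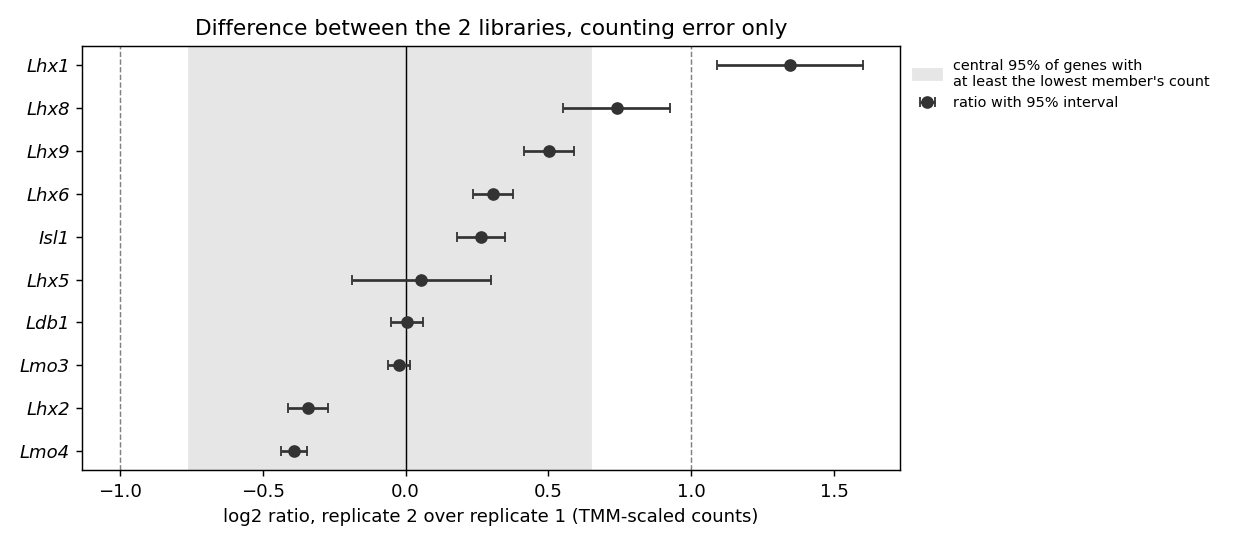
Log2 ratio of TMM-scaled counts, replicate 2 over replicate 1, for the 10 genes, with 95% intervals of counting error; the shaded band holds the central 95% of genes with at least the lowest count among the 10, and dashed lines mark 2-fold. Lhx1 at 1.34 and Lhx8 at 0.74 lie right of the band, and the other 8 lie within it.

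Genes that mark regions and cell types in which these factors are known were compared in the same test, from lists chosen by name. Hypothalamic genes were the list with most calls, 9 of 14 tested higher in replicate 2 and 1 lower (median log2 ratio 1.51), and the 16 listed genes summed to 131 and 176 coding TPM. Those higher in replicate 2 included Fezf1, a patterning factor, at 5.83 and 18.7 coding TPM (log2 ratio 1.51), the neuroendocrine factors Sim1 at 1.70 and 5.45 (1.55) and Otp at 1.03 and 4.13 (1.77), and the orexin gene Hcrt at 1.77 and 6.81 (1.68). Nkx2-4, Six6, Rax, Hmx3 and Nr5a1 were the other calls, with log2 ratios of 1.06, 1.51, 2.71, 1.84 and 2.41. The oxytocin gene Oxt was called lower at 8.49 and 3.86 (-1.37), while Avp, the vasopressin gene and highest of the list, was not called at 84.5 and 88.6, nor was Trh at 13.7 and 21.2. Lmx1a (log2 ratio 1.97) and Lmx1b (1.85) were both called higher in replicate 2 as well. Several hypothalamic calls rested on low counts, such as Rax (7 and 59), Hmx3 (10 and 45) and Nr5a1 (12 and 80). Hcrt had 13 and 52 counts and Oxt 54 and 25, while Fezf1 had 264 and 916 and Sim1 261 and 929. Over all genes tested 10.4% were called, against 1.56% of genes with at least the lowest mean count of the 10 genes. Lhx5, described above as known from hypothalamus, had a log2 ratio of 0.06, against 1.34 for Lhx1. The part of differing amounts of hypothalamic tissue in these ratios was not tested.

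Genes of the other regions gave fewer calls. MGE and interneuron genes, the setting of Lhx6, had a median of -0.00 with 1 of 12 called, the patterning factor Nkx2-1, higher in replicate 2 at 2.81 and 9.94 coding TPM. The neuropeptide genes Sst (281 and 299) and Npy (276 and 200.1) and the GABA-synthesis gene Gad1 (91.7 and 129.7) were the highest of that list. Cholinergic genes, the setting of Lhx8 and Isl1, had a median of 0.35 with 0 of 8 called. They ranged from Zic4 (43.0 and 95.5), Ache (46.9 and 70.4) and Ngfr (5.69 and 7.94) down to Chat, the acetylcholine-synthesis gene, at 0.665 and 0.817 coding TPM, far below Lhx8 and Isl1. Of the 8 log2 ratios 7 were above 0, from -0.01 for Slc18a3 to 0.95 for Zic4, with Chat at 0.05 (SE 0.31). Cajal-Retzius genes had a median of 0.58, with 6 of 8 ratios above 0 and 0 called, and their sums were 325 and 430 coding TPM, led by Reln at 133 and 197, Calb2 at 129 and 128 and Cacna2d2 at 28.9 and 47.6. Trp73, the lowest of them, stood at 2.14 and 3.77. Thalamic genes, where Lhx9 and Lhx2 are known, had a median of 0.43 with 0 of 6 called and sums of 106 and 153, led by Slc17a6 (52.0 and 77.3), Prkcd (20.5 and 23.4) and Tcf7l2 (10.3 and 17.0).

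Lists of cortex and striatum leaned the other way or had no lean. Dorsal progenitor genes had a median of 0.10 (0 of 8 called), with Hes5 at 89.4 and 96.2 coding TPM, Sox2 at 75.8 and 104 and Tfap2c lowest at 3.25 and 3.54. Cortical projection neuron genes, the setting of Lmo4, had a median of -0.25 (0 of 8 called), with Tle4 at 66.7 and 78.7 coding TPM and Lpl lowest at 16.5 and 13.3. Striatonigral genes, the setting of Isl1, had a median of -0.32 (0 of 6 called), led by Sfxn1 at 80.2 and 98.6 and Tac1 at 68.5 and 56.0, with Drd1, the dopamine receptor of these neurons, at 16.5 and 9.35. Striatopallidal genes had a median of -0.50, and of 5 tested the receptor gene Gpr6 was called lower at 13.9 and 4.77 (log2 ratio -1.71). Pan-neuronal genes had a median of -0.22 (0 of 5 called). These counts describe the lists and were not tested against other genes.

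**Figure D3:**
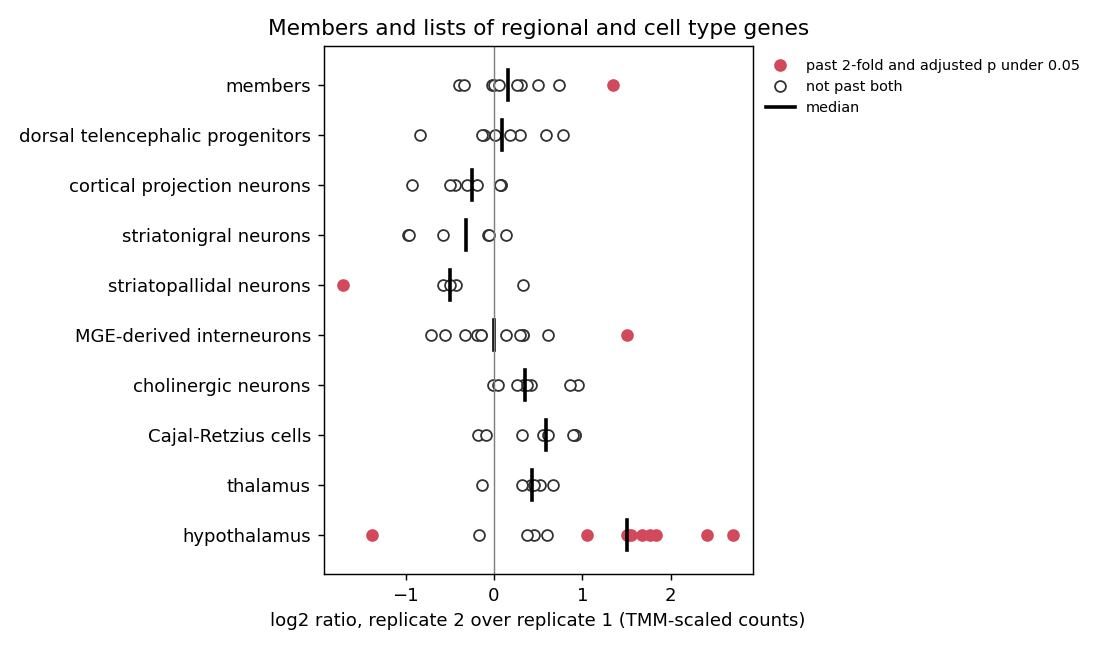
Log2 ratio of TMM-scaled counts, replicate 2 over replicate 1, for each tested gene of the 10 and of 9 regional or cell type lists, with filled points for called genes and a bar at the median. The hypothalamic list has 10 called genes and a median of 1.51, and the other 8 lists have medians from -0.50 to 0.58.

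LIM-HD genes are also expressed in tissues next to the forebrain, so markers of these were counted. Of 7 pituitary genes, the hormone genes Gh, Prl, Lhb and Tshb had 0 counts in both libraries. Cga, also a hormone gene, had 1 count in replicate 1 and 0 in replicate 2. The whole list summed to 0.148 and 0.363 coding TPM. Retinal genes summed to 3.47 and 3.54, with Atoh7 at 0 and Crx called lower in replicate 2 (1.92 and 1.13 coding TPM). Cranial sensory ganglion genes summed to 3.47 and 5.45, with Tlx3 at 0 and Avil called higher (6 and 43 counts), and pineal genes to 3.69 and 1.82, with Asmt at 0 and Tph1 called lower (92 and 18 counts). Choroid plexus genes summed to 735 and 474 (0 of 4 called), led by Ttr at 713 and 446. Meningeal genes, of which 3 of 6 were called higher in replicate 2 (the collagen genes Col1a1 at 25.6 and 171 and Col1a2 at 61.3 and 243, and Lum at 5.32 and 13.6), summed to 292 and 783. The part of meningeal tissue in the differences between libraries was not tested.

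Several of the 10 genes have neighbours whose reads could be confused with theirs, and whether strand was used in counting is not given in the sources used here. The antisense gene Gm27199 overlaps the start of Lhx5 and had 6 and 32 counts against 241 and 304 for Lhx5. Lhx1os, 125 nt from Lhx1 on the opposite strand, had 43 and 88 counts, and AI606473, 162 nt from Lhx8 on the opposite strand, had 86 and 157. Both had replicate 2 as the higher library, with log2 ratios of 0.75 (SE 0.27) and 0.59 (SE 0.19), as did Lhx1 and Lhx8, but neither neighbour was called. Pprc1, which overlaps Ldb1 on the opposite strand, had 811 and 1053 counts. Gm27197 in Lhx2 (17 and 3 counts), A830011K09Rik in Lmo3 (20 and 31) and, within 10 kb, Morn5 near Lhx6 (21 and 11) held few. Aatf near Lhx1 (1125 and 925) and 2310009B15Rik near Lhx9 (321 and 298) lie on the same strand as those genes but do not overlap them. Other neighbours went both ways. Gm27199 was called higher in replicate 2 (log2 ratio 2.04), against 0.06 for Lhx5. Gm27197 (-2.60) and Morn5 (-1.18) were called lower, against -0.34 for Lhx2 and 0.31 for Lhx6. Aatf (-0.56), 2310009B15Rik (-0.39), Pprc1 (0.10) and A830011K09Rik (0.34) were not called.

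The transcript tables divided each gene's counts among its annotated transcripts, and shares of TPM below are those estimates. Transcripts were compared in classes that share a start, an exon or an end, chosen after seeing which transcripts held counts. The estimates carry a posterior SD for each count, which covers the division of reads among transcripts, while the gene totals of all 10 had a posterior SD of 0. Of the 60 transcripts 55 had a GENCODE M21 entry, 51 of them with the same length.

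Most of the TPM of Lhx9 in both libraries was assigned to transcripts that do not code for the DNA-contacting run of the homeodomain. Lhx9 has alternative last coding exons. The long form (Lhx9-202, 388 codons) completes the homeodomain, and the short forms (Lhx9-203, 321 codons, and Lhx9-201, 330 codons) part from it just before that run, which starts at codon 305 of Lhx9-202. A form of Lhx9 with a truncated homeodomain is known as Lhx9 alpha. The stretches are shown from the coding strand of mm10 chromosome 1, the long end from 138831367 to 138831624 with the run and the stop codon in capitals, the short end from 138828654 to 138828710 with the stop codon in capitals.
Long end: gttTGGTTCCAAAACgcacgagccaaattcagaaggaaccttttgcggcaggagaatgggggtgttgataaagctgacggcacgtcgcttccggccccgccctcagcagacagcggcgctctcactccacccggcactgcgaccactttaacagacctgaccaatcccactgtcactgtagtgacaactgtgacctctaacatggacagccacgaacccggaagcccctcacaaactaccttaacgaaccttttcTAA
Short end: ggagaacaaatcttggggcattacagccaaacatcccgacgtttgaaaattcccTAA
The short forms held 1296 and 2033 counts and 76.1 and 68.0% of the TPM of both classes, and the long form held 313 and 740.0 counts and 23.9 and 32.0%. The gap between the classes was larger than the spread between libraries (short forms 72.0 ± 5.70%, SD, n = 2). Posterior SDs were 64.2 and 82.3 counts for the short forms and 18.9 and 15.8 for the long form. The transcripts also differ in length (3645 nt for Lhx9-202, 4551 for Lhx9-203 and 4937 for Lhx9-201), so reads outside the ends entered the division. The long end lies in an intron of Lhx9-203, and in total RNA reads within it cannot be told apart from those of unspliced transcripts. Single transcripts were Lhx9-203 at 53.7 and 52.0%, Lhx9-202 at 22.7 and 30.5% and Lhx9-201 at 18.1 and 12.9% of the gene's TPM. The upstream first exon of Lhx9 held 81.1 and 86.5% of TPM, and the share of the downstream one was mostly Lhx9-201.

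The other LIM-HD genes differed from Lhx9 in this respect. Transcripts with the 12 bases held 98.0 and 99.2% of TPM for Lhx6, 80.2 and 77.0% for Isl1 and 82.8 and 75.0% for Lhx2, against 22.8 and 30.5% for Lhx9. Lhx5 has 1 transcript, which codes for the run. For Lhx1 the shares were 100 and 76.0%, the rest of replicate 2 being the 5 counts on Lhx1-202, and Lhx1-201 and Lhx1-204 had 83.2 and 16.8% in replicate 1. Lhx1-202, Lhx2-202 and Lhx2-205 are annotated with 338, 577 and 325 coding nt, which are not whole numbers of codons. Their coding sequences are thus incomplete, and lacking the run there need not mean a protein without it, unlike the alternative end of Lhx9. For Lhx8, Lhx8-201 codes for the run and held 51.7 and 47.3% of TPM, and transcripts with no M21 entry held 48.3 and 52.7%, so its share is unknown beyond that.

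Isl1 has a form that skips the first 69 coding bases of an exon, 24 codons after the homeodomain run. Isl1-201 (349 codons) includes them from codon 256 on and Isl1-202 (326 codons) lacks them. A shorter Isl1 form known as Isl1 beta lacks part of the region that binds LIM domains of partner factors, downstream of the homeodomain. The bases (mm10 chromosome 13, 116301710 to 116301778, coding strand) are shown because they are the whole coding difference between the forms, with the final AG, which precedes the inner splice site, in capitals.
Isl1 exon start: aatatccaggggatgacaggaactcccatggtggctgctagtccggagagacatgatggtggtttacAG
Isl1-201 held 1528 and 2482 counts and Isl1-202 held 251 and 15.8 (posterior SD 16.3 and 9.62). The form with the bases was thus assigned 71.8% of the TPM of both in replicate 1 and 98.4% in replicate 2. The annotated transcripts also differ in length outside the coding bases, with 2516 nt for Isl1-201 and 1198 nt for Isl1-202. Reads outside the 69 bases therefore also entered the division, and the shares are no direct measure of that splice choice. The difference of 251 from 15.8 counts is larger than the posterior SDs, and whether it differs beyond the spread between animals cannot be told from 2 libraries. Transcripts without a coding frame also held counts, with Isl1-203 at 15.7 and 0%, Isl1-204 at 0 and 11.2% and Isl1-205 at 4.18 and 11.8% of TPM. Isl1-203 and Isl1-205 are annotated as retained introns.

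Lhx6 transcripts differed in a penultimate exon of 104 nt and in their start. The exon was included in Lhx6-201 (392 codons) and skipped in Lhx6-205 (377 codons), and it is shown because it changes the end of the protein after the homeodomain run (mm10 chromosome 2, 36087368 to 36087471, coding strand).
Lhx6 exon: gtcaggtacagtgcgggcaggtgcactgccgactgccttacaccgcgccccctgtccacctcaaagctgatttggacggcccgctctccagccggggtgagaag
Transcripts with the exon held 33.3 and 20.5% of the TPM of both classes, so the class without it was assigned more in both libraries (73.1 ± 9.03%). The class without it includes the short Lhx6-206, whose 176 and 363 counts weigh more in TPM than in counts. By counts, transcripts with the exon held 42.7 and 28.6%. Posterior SDs were 82.7 and 142 counts for the class with the exon and 150 and 208 for the class without. Single transcripts were Lhx6-201 at 32.6 and 19.2%, Lhx6-205 at 20.0 and 30.4%, Lhx6-204 at 19.8 and 14.8% and the short Lhx6-206 (825 nt) at 25.6 and 33.6%. Among full-length forms the upstream first exon held 72.6 and 75.7% of TPM.

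Ldb1 transcripts differed in whether they code for the LIM-interaction domain, the part that holds LIM proteins. Ldb1-201 (375 codons) ends in the coding exon that follows, and Ldb1-205 (319 codons) reads into the intron instead and stops there. A short form without this domain is known as Ldb1b. Both ends are shown from the coding strand of mm10 chromosome 19, the long end from 46033111 to 46033341 and the short end from 46033969 to 46034031, with stop codons in capitals.
Long end: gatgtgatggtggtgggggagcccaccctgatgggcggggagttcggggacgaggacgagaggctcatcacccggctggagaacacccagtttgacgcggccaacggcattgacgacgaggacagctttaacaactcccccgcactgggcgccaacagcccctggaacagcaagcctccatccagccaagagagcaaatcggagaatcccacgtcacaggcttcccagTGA
Short end: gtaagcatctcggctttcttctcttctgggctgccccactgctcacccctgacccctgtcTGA
Long forms held 3698 and 3878 counts and 80.6 and 71.1% of the TPM of both classes, and Ldb1-205 held 958 and 1709 counts and 19.4 and 28.9%. The long forms were the higher class in both libraries (75.9 ± 6.78%). The short end lies in an intron of Ldb1-201, and in total RNA its reads cannot be told apart from those of unspliced transcripts. Ldb1-201 had 46.5 and 39.5% of the gene's TPM, Ldb1-206 (373 codons) 19.1 and 16.0% and Ldb1-205 17.6 and 25.4%. The upstream start held 71.8 and 63.2%.

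**Figure D4:**
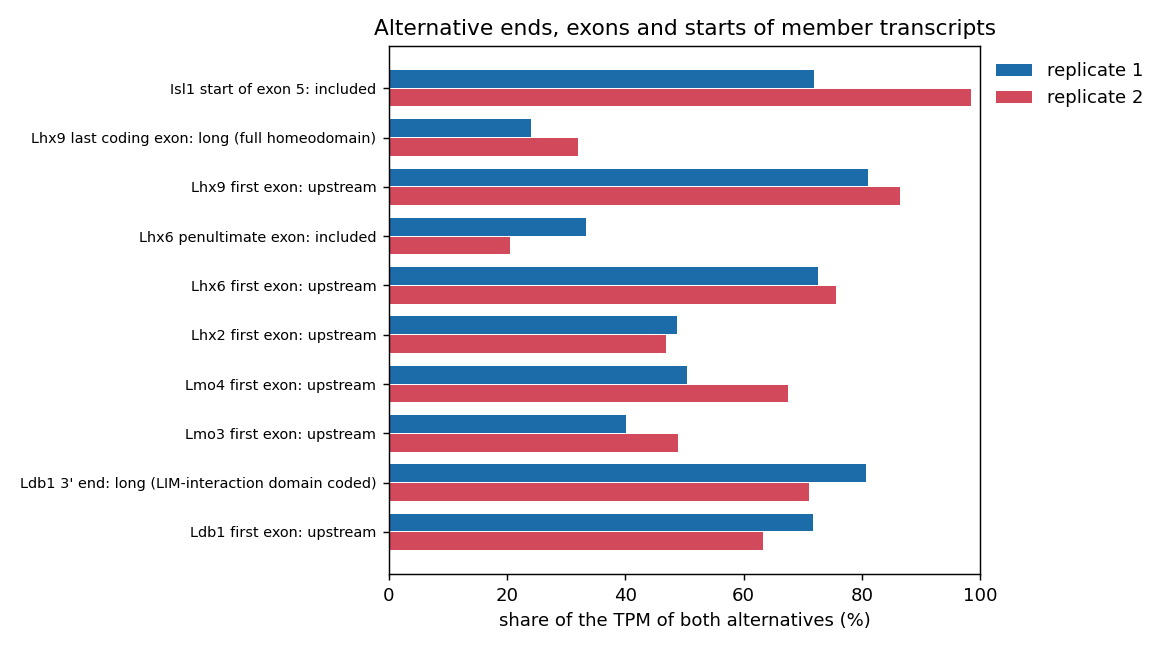
Share of TPM of the first of each pair of transcript classes, as a percentage of both classes, in replicate 1 and replicate 2. The share assigned to the Isl1 transcript with the exon start stood at 71.8 and 98.4%. The long Lhx9 end stood at 23.9 and 32.0%, and the long Ldb1 end at 80.6 and 71.1%.

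Lhx2, Lmo3 and Lmo4 had alternative starts. For Lhx2, the upstream first exon (Lhx2-203, 365 codons) held 48.7 and 46.8% of TPM against the downstream one (Lhx2-201, 406 codons), nearly equal in both libraries (47.8 ± 1.30%). For Lmo3, Lmo3-204 from the upstream start held 40.2 and 48.9%, and Lmo3-206 from the downstream start 37.4 and 32.7% of the gene's TPM, both with the same 145 codons. For Lmo4, the upstream start (Lmo4-201) held 50.4 and 67.5% of both classes, and Lmo4-203 from the downstream start held 44.1 and 29.2% of the gene's TPM, with the same 165 codons. Counts of the upstream class of Lmo4 were 4548 and 5324, and those of the downstream class 3465 and 1971. The downstream class was thus the one with fewer counts in replicate 2, the library in which Lmo4 as a whole had the lower scaled count.

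The 250 bases before the Lmo4 starts are shown because the shares of its starts differed between libraries (RefSeq, GRCm38.p6, chromosome 3, minus strand). The upstream window runs from 144205256 to 144205505 and a downstream window from 144202397 to 144202646, and CG pairs, the sites of DNA methylation, are in capitals.
Lmo4 upstream: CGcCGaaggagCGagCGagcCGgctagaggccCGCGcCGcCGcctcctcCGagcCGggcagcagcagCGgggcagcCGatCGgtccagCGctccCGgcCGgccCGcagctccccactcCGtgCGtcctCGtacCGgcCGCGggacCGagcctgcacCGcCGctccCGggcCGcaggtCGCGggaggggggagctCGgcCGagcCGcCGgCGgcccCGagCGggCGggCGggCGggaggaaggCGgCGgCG
Lmo4 downstream: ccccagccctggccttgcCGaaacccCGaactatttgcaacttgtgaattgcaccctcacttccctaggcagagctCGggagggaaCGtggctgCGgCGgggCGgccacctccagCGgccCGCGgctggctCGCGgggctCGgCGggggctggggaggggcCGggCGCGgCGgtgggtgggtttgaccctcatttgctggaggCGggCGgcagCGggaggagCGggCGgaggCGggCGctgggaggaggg
The upstream window held 82.4% G and C and 44 CG pairs, and the downstream window 73.6% and 25. RefSeq windows were found for 9 of the 10 genes, 16 in all. Their median G and C content was 66.6% (range 46.0 to 82.4%), against 52.4% over 32851 windows of the same length. Their median ratio of observed to expected CG pairs was 0.814, against 0.373. The motif TAATTA, a homeodomain binding core searched on both strands, was in 0 of the 16 windows and in 4.84% of all windows. TATAAA, the TATA motif, was in 0 of the 16 and in 12.4% of all on either strand.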

How the data were processed

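Ribosomal-RNA-depleted total RNA over 200 nt, with spike-ins, was sequenced as stranded read pairs in 2 forebrain libraries, per the labels. Gene and transcript values were made on mm10 and GENCODE M4, per the text deposited with each sample, and aligner and quantifier were not given in the sources used here. The authors deposited expected counts (estimated, not always whole), posterior mean counts with their posterior SD, TPM, FPKM and isoform percentages (percent of a gene's TPM), per the file headers. TPM summed to 1000000 in each library. Of 43346 genes 42462 (98.0%) were matched to GENCODE M21 (same assembly) for names, biotypes, coordinates and sequences.

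From these, expected counts were rounded, scaled with TMM (edgeR 4.0.16, R 4.3.3) and tested gene by gene with an exact binomial test, two-sided (scipy 1.17.1, Python 3.11.15) with Benjamini-Hochberg adjustment across genes averaging 10 counts or more. Log2 ratios had 0.5 added to each count. Floors of 3 counts and the 95% intervals cover counting error only. The test between libraries was tried on simulated counts that had counting error only. DESeq2 1.42.0 size factors, library totals, other filters and thresholds, posterior mean counts, the posterior SD as error, protein-coding genes alone, a length trend, FPKM, posterior mean TPM, other TPM denominators and leaving out each replicate were alternatives.

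Named genes are the 10 genes and, of 20 lists, mainly the 3 highest, the lowest and those called, with neighbours within 10 kb averaging 10 counts or more and transcripts with at least 10% of a gene's TPM. Some genes that meet this rule are not reported here. The genes and lists were chosen with earlier results of these data known. Transcript classes, the count of Lhx1 on Lhx1-201 alone and the background at the lowest count of the 10 genes were chosen after seeing the data.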

Additional observations from a re-analysis of the deposited data

How the results depend on the processing

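Lhx1 was called between the libraries under all 9 alternatives run for the test, and it was the only one of the 10 genes called in 8 of them. The 1.5-fold threshold called 2 of the 10, adding Lhx8, a share near the 19.8% called over all genes tested at that threshold. The number of genes called over the whole table was 1833 (10.4% of those tested). It became 2752 (12.9%) with no filter beyond 1 count and 379 (2.77%) with a mean of at least 100 counts. At 1.5-fold it was 3475 (19.8%), and among protein-coding genes alone 1108 (7.30%). With library totals all log2 ratios moved up by about 0.20 from TMM, and the ratio of Lmo3 changed sign, from -0.02 to 0.17. The other 9 genes kept the sign of their ratio under DESeq2 size factors, library totals, protein-coding genes alone, a removed length trend and posterior mean counts. Posterior mean counts left the ratios nearly unchanged. The posterior SD as error changes the error and not the ratio, and that SD was 0 for all 10 genes. Ratios under other filters are not reported here. Leaving out each replicate in turn leaves 1 library, so it returns the ratios given above as folds for each library and adds no separate check. In log2 these were 1.41 to 2.20 for Lhx2 over Lhx9, 1.78 to 2.03 for Lhx6 over Lhx8, 0.16 to 0.47 for Lmo4 over Lmo3 and 1.58 to 2.42 for Ldb1 over Ldb2. For Lhx1 over Lhx5 they were -0.98 to 0.49, a change of sign without replicate 1, and posterior mean TPM gave -0.03. Without the rescaling to protein-coding genes the mean levels of the 10 genes ran from 0.910 TPM (Lhx5) to 47.3 (Lmo4), lower by construction, with Lhx1 (0.995) above Lhx5, and with mitochondrial genes left out of the sum Lhx2 (86.1) and Lmo3 (228) moved by more than their SD. Depth limits Lhx1 and Lhx5 most, with 162 to 500 counts each. No paired analysis was possible because the 2 libraries form 1 group.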
